A study of Drosophila montana with 23 samples.

Results

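Genes of sugar breakdown and central carbohydrate metabolism were followed through diapause in females of Drosophila montana. They were Gapdh1, Gapdh2, Tpi, Pgm, Acon and CG12030, which made up 6 of the 218 genes measured on a custom array. The members were found by name, as every probe whose annotation held the gene's name as a whole word. This gave 52 probes in 26 pairs, and each gene was read from the probe with the highest mean log2 intensity over all arrays but 1 that stood apart. By gene, the names covered 10 probes for Gapdh1, 12 for Gapdh2, 6 for CG12030 and 8 each for Tpi, Pgm and Acon. A measured level was a log2 intensity after quantile normalization, so that 1 unit is a doubling, and levels were compared between groups within a gene and never between genes.

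All females were of strain 175OJ8, an isofemale line from northern Finland, so the groups describe 1 genetic background, and each array held RNA of whole bodies of 2 pooled females. They lived in a climate chamber that followed the seasons of the home site. Diapausing females (D, with undeveloped ovaries) were taken at 7 and 50 days in autumn conditions (7D, 50D), at 150 days in winter cold and darkness (150D), and at 220 days shortly after winter (220D). Females of 250 days in spring (250D) had overwintered in diapause, had since matured their ovaries and are labelled non-diapausing. Non-diapausing females (ND) were 7 and 50 days old in summer conditions (7ND, 50ND) or 150 days old in winter (150ND). The 150ND females had spent their first days in constant light and were then kept in the chamber with the 150D females. Each group had 3 arrays, and 7ND had 2. At 7 and 50 days season and reproductive state cannot be told apart, and along the D groups age goes with season.

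Glycolysis splits a sugar into triose phosphates, and its later steps carry these on to pyruvate and yield ATP and NADH. Tpi is triose phosphate isomerase, which interconverts the triose phosphates. Gapdh1 and Gapdh2 are paralogous genes for glyceraldehyde-3-phosphate dehydrogenase, the next enzyme along, which forms NADH. Pgm is phosphoglucose mutase, which links glucose 6-phosphate with glucose 1-phosphate and so with glycogen and trehalose, the sugar of insect blood. Acon is aconitase, an enzyme of the mitochondrial citric acid cycle. CG12030 is named here as the array gives it. The RefSeq annotation of D. montana lists Tpi as 1 gene, but holds 3 genes named Pgm (Pgm1, Pgm2a and Pgm2b) and 2 named mAcon, and which of these the array's probes match was not tested. Insects in reproductive diapause are known to shift their use of sugar stores, and this family is therefore often followed through the dormant season.

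Of the 23 arrays, 7ND replicate c stood apart. Its median spot intensity was 530.0, against 19.4 to 49.7 on the other 22 arrays, 25.4% of its spots carried an outlier flag, against 0.466% to 1.58%, and its spike-in controls were fitted with an R2 of 0.660, against 0.991 to 0.998. It was left out of the fit, so that 7ND rests on replicate a alone and is assumed to vary like the other groups. The 5 ovary markers were Fmr1, Hsp26, Hsp83, lark and tws, of which Hsp26 and Hsp83 are heat shock genes. The log2 of their summed intensity, in which brighter genes weigh more, was 11.94 to 13.83 on all arrays of 7D, 50D, 150D and 220D. It was 15.99 to 17.50 on those of 250D and the ND groups. Replicate c of 150ND was the lowest of these at 15.99, with 17.45 and 17.50 on the other 150ND arrays. In whole females, fewer cells of a type and less RNA per cell cannot be told apart. The arrays lay on 3 slides, each with at most 1 array of a group, and values within slides are given for the differences that were called.

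All 6 genes had their highest group mean at 7D, as the plot of levels by array shows. For 4 of the genes the other diapausing groups lay far below 7D, whereas CG12030 was high in every diapausing group at this normalization.

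**Figure D1:**
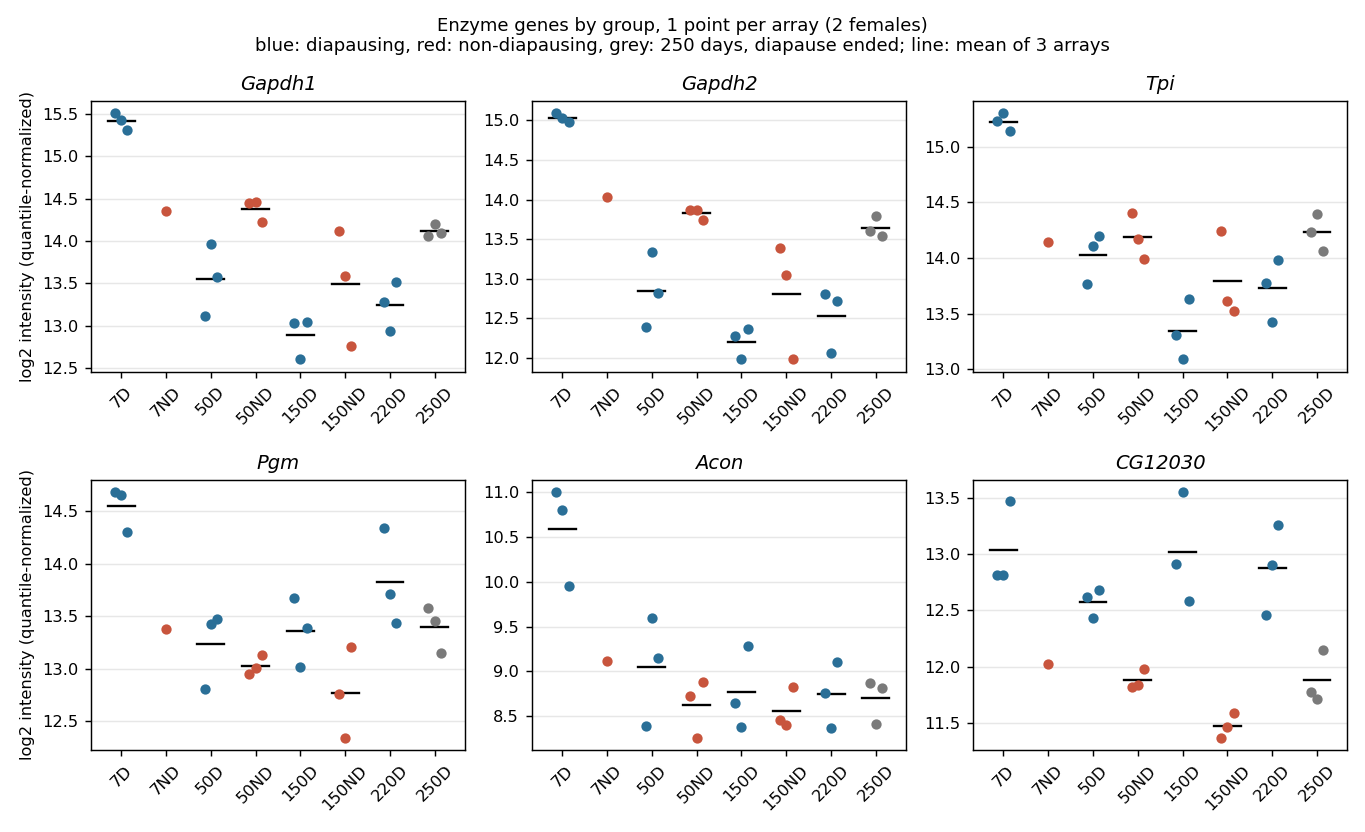
Quantile-normalized log2 intensity (vertical axis, a separate range for each gene) of the 6 genes in the 8 groups (horizontal axis, by age, with diapausing left of non-diapausing females). Each point is 1 array of 2 females, lines are means of 3 arrays, and 7ND is shown by replicate a only. The 7D arrays are the highest for Gapdh1, Gapdh2, Tpi and Acon, and for CG12030 the arrays of 7D, 50D, 150D and 220D (12.43 to 13.55) lie above all others (11.36 to 12.15).

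Gapdh1 measured 15.51, 15.43 and 15.31 on the 7D arrays, against 14.35 in 7ND. It measured 13.11, 13.96 and 13.57 in 50D, against 14.44, 14.46 and 14.23 in 50ND, and 13.03, 12.60 and 13.04 in 150D, against 14.12, 13.59 and 12.76 in 150ND. After winter it stood at 13.28, 12.93 and 13.51 in 220D and at 14.06, 14.20 and 14.10 in 250D. The group means thus spanned 2.53, a 5.76-fold range, with 7D at the top and 150D at the bottom, and the 250D females lay -0.26 ± 0.27 (SE) from the 50ND females. In the order of the 8 means, only the step from 50ND up to 7D (1.04) passed an adjusted p of 0.05, and the other 6 pairs of neighbours did not differ beyond their spread. Replicate c of 150ND lay among the 150D arrays.

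Gapdh2 measured 15.09, 15.03 and 14.99 in 7D, against 14.03 in 7ND. It measured 12.39, 13.34 and 12.82 in 50D, against 13.87, 13.86 and 13.75 in 50ND, and 12.27, 11.99 and 12.36 in 150D, against 13.39, 13.05 and 11.99 in 150ND. In 220D it stood at 12.80, 12.07 and 12.72 and in 250D at 13.60, 13.80 and 13.54. It followed Gapdh1 array by array, with a group-mean span of 2.83 or 7.09-fold, the widest of the 6 genes. Among neighbours in its order, only 250D and 50D differed (0.80 higher in 250D, adjusted p = 0.0344 from limma), with 150D again the lowest group.

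Tpi measured 15.23, 15.30 and 15.14 in 7D, against 14.14 in 7ND. It measured 13.76, 14.11 and 14.19 in 50D, against 14.41, 14.17 and 13.99 in 50ND, where the arrays overlapped, and 13.31, 13.09 and 13.63 in 150D, against 14.25, 13.61 and 13.52 in 150ND. In 220D it stood at 13.78, 13.42 and 13.99 and in 250D at 14.24, 14.40 and 14.07. Tpi thus had the same top and bottom groups as the Gapdh genes over a narrower span of 1.88, and only its step from 250D up to 7D (0.99) passed among neighbours. Across the 8 group means the 3 genes of these adjoining steps ran closely together, with a Pearson r of 0.996 between Gapdh1 and Gapdh2, 0.961 between Gapdh1 and Tpi and 0.942 between Gapdh2 and Tpi. Over the 22 arrays, which share their normalization, the values were 0.993, 0.950 and 0.934. The next most similar gene to each of the 3 was Rev1, a DNA polymerase used to copy damaged DNA, with r of 0.896 to 0.929 over group means and 0.770 to 0.773 over arrays.

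Pgm, read from its brightest probe, measured 14.68, 14.65 and 14.30 in 7D, against 13.38 in 7ND, and 12.81, 13.42 and 13.47 in 50D, against 12.94, 13.01 and 13.13 in 50ND. It measured 13.67, 13.02 and 13.39 in 150D, against 12.76, 12.34 and 13.21 in 150ND. In 220D it stood at 14.34, 13.71 and 13.43 and in 250D at 13.57, 13.46 and 13.15. On this probe 220D had the second highest mean, at 13.83, with 13.03 in 50ND and 12.77 in 150ND. The differences of 220D from these ND groups were not tested. Replicate a of 220D lay above replicate c of 7D. On the second Pgm probe, described below, 220D (11.49 to 12.60) lay below 50ND (12.99 to 13.39). Over the 8 group means the genes most like the brightest probe were Amph (r = 0.942), inaD (0.920) and Act_42A (0.905). Over 22 arrays their r was 0.851, 0.847 and 0.726. Amph encodes amphiphysin, needed for the membrane tubules of muscle, inaD a scaffold of the photoreceptors and Act_42A an actin.

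Acon measured 11.00, 10.80 and 9.95 in 7D, against 9.12 in 7ND. Its other groups lay close together, at 8.39, 9.59 and 9.15 in 50D, against 8.73, 8.26 and 8.89 in 50ND, at 8.65, 8.38 and 9.29 in 150D, against 8.45, 8.40 and 8.83 in 150ND, at 8.76, 8.36 and 9.11 in 220D and at 8.87, 8.42 and 8.81 in 250D. So only 7D stood apart for this gene, and none of the 6 lower steps in its order passed the test. The genes most like Acon were sisA (r = 0.969 over group means), a transcription factor of sex determination, sls (0.953), the giant titin-like protein of the sarcomere, and Amph (0.917).

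CG12030 measured 12.82, 12.81 and 13.47 in 7D, against 12.02 in 7ND. It measured 12.62, 12.43 and 12.68 in 50D, against 11.82, 11.84 and 11.98 in 50ND, and 12.92, 13.55 and 12.59 in 150D, against 11.36, 11.46 and 11.58 in 150ND. In 220D it stood at 12.46, 12.90 and 13.26 and in 250D at 11.77, 11.71 and 12.15. After quantile normalization every array of a diapausing group thus lay above every array of the ND groups and of 250D, a division no other member showed. Without normalization between arrays it did not hold, since 220D then measured 11.53 to 13.12, against 11.52 to 12.64 in 250D, 11.87 to 12.33 in 50ND and 12.78 in 7ND. How many of all genes divided in this way was not counted. By pair, 72.9% of all genes did not overlap between 50D and 50ND, 33% between 150D and 150ND and 55% between 250D and 220D. Within each side of the division the steps between neighbouring groups did not pass the test, and neither did the step between 50D and 7ND (0.56). Over group means its r with Gapdh1 was -0.05 and with Gapdh2 -0.07. The most similar genes were CG17928 (r = 0.966), cyc (0.892), a clock transcription factor, and fru (0.859), a sex determination factor.

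The initiation of diapause was addressed by the comparison of 7D with 7ND females. Calls required a fold change of 2 or more with an adjusted p below 0.05, and 5 of the genes were called higher in 7D, while 16.5% of all genes were called higher in this comparison. Acon was 2.76-fold higher (log2 1.47 ± 0.46 SE, adjusted p = 0.0182), Pgm 2.24-fold (1.17 ± 0.37, 0.0186) and Tpi 2.12-fold (1.08 ± 0.30, 0.0102). Gapdh1 was 2.09-fold (1.07 ± 0.39, 0.0321) and CG12030 2.02-fold higher (1.01 ± 0.35, 0.0249). Gapdh2 differed by almost as much, 1.01 ± 0.42, with an adjusted p of 0.0569. All 3 of the 7D arrays lay above the 7ND array for each gene, as for 89% of all genes in one direction or the other. The median over the 6 genes was 1.08, against 0.05 over all 218 genes. These values rest on 1 array of 7ND, and on its slide the differences were 0.80 to 1.88. Tissue markers differed here as well. The log2 sums of the ovary markers were 11.94 to 12.03 in 7D, against 17.46 in 7ND. Those of the muscle markers were 17.32 to 17.36, against 16.64, and those of the gut markers 15.69 to 16.34, against 17.12. The part of ovary, muscle or gut RNA in the differences of the 6 genes was not tested. The value of Gapdh1 also depends on the probe, since its probes numbered 2, described below, differed by only 0.77 to 0.85. With 7ND replicate c taken in, Acon (2.06) and CG12030 (1.1) were called, and Gapdh1 (0.90), Gapdh2 (0.95) and Tpi (0.99) passed by adjusted p without the fold change, and Pgm stood at 0.64 (adjusted p = 0.13). The median of all genes was then 0.61, and 56 of the 218 were called higher. With the slide as a block Gapdh1 (0.91, adjusted p = 0.0539) and CG12030 (0.91, 0.0539) were not called, and with a replicate block CG12030 stood at 0.88 (0.0486). With spike-in scaling or no normalization between arrays none of the 6 was called, although their differences were 1.21 to 1.61 and 0.30 to 0.69, while the median of all genes stood at -0.03 and -0.94.

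In the passage to the maintenance phase, 50D females were compared with 7D females. Of the 6 genes, 5 were called lower in 50D females, with 13.3% of all genes called lower. Gapdh2 was 4.54-fold lower (log2 -2.18 ± 0.29, adjusted p = 1.33e-05) and Gapdh1 3.65-fold lower (-1.87 ± 0.27, 2.27e-05). Acon was 2.91-fold (-1.54 ± 0.33, 0.000867), Pgm 2.48-fold (-1.31 ± 0.26, 0.00051) and Tpi 2.30-fold lower (-1.20 ± 0.21, 0.000181). No 50D array reached the 7D arrays for any of the 6 genes. The 2 groups did not overlap, in one direction or the other, for 68.3% of all genes. CG12030 was not called, at -0.46 ± 0.25 (adjusted p = 0.129), but was with 75th-percentile scaling (-1.23, 0.00215). The median of the 6 was -1.43, against 0.21 over all genes. Within the 3 slides Gapdh1 differed by -2.40, -1.47 and -1.74, Gapdh2 by -2.70, -1.68 and -2.17, Tpi by -1.47, -1.19 and -0.95, Pgm by -1.88, -1.23 and -0.83, and Acon by -2.61, -1.21 and -0.80.

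Muscle and gut markers moved with this decline, and so did the summed neuron markers. Mhc, the myosin heavy chain, was lower in 50D than in 7D by 2.02 on the log2 scale (-2.02 ± 0.30, adjusted p = 2.27e-05), and sls by -3.33 ± 0.63 (0.00033). The log2 summed intensity of both markers was 15.04 to 15.78 in 50D, against 17.32 to 17.36 in 7D and 16.64 in 7ND. It was 13.98 to 16.22 in the groups of 50 days or more. Before that decline sls was higher in 7D than in 7ND (2.49 ± 0.90, 0.0317), and Mhc stood at 0.69 ± 0.42 (0.169). Both gut markers were lower in 50D than in 7D, Jon25Bi, a digestive protease, by -3.28 (adjusted p = 1.35e-05) and ninaD, a receptor for carotenoid uptake, by -4.84 (3.68e-06). Their log2 summed intensity was 12.50 to 12.99 in 50D, against 15.69 to 16.34 in 7D, and 17.12 in 7ND. The log2 sums of the neuron markers were 7.47 to 7.93 in 50D, against 8.35 to 8.79 in 7D. Those of the photoreceptor markers overlapped, at 15.60 to 15.91 in 50D and 15.45 to 15.73 in 7D. The part of muscle, gut or neuron RNA in the decline of the enzyme genes was not tested. The 7D females were also those with the lowest ovary markers, at 11.94 to 12.03, with 13.28 to 13.45 in 50D.

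At 50 days, diapausing were compared with reproducing females. None of the 6 genes was called, and 35.3% of all genes were. By adjusted p alone Gapdh2 was lower in 50D (-0.98 ± 0.29, adjusted p = 0.0105), as was Gapdh1 (-0.83 ± 0.27, 0.017), and CG12030 was higher (0.70 ± 0.25, 0.0235), and in these 3 genes, as in 72.9% of all genes, the groups did not overlap. By this looser rule 25.2% of all genes were lower and 29.8% higher. Tpi (-0.17, 95% interval -0.61 to 0.28), Pgm (0.21, -0.34 to 0.76) and Acon (0.42, -0.27 to 1.11) had intervals on both sides of 0. The 3 other Pgm probes, described below, were called lower in 50D. Both Gapdh genes passed the fold change when 50D replicate b was left out, at -1.04 for Gapdh1 and -1.22 for Gapdh2, and Gapdh2 alone did without 50ND replicate c. Both gut markers were also lower in 50D (Jon25Bi -2.71, adjusted p = 0.000129, and ninaD -1.66, 0.0210). The log2 sums of the ovary markers were lower too, at 13.28 to 13.45 in 50D, against 17.45 to 17.47 in 50ND. Those of the muscle markers went the other way, at 15.04 to 15.78, against 14.23 to 14.99. The part of these tissues in the values of the 6 genes was not tested.

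The difference between diapausing and non-diapausing females therefore had opposite signs at 7 and 50 days for the Gapdh genes, and the change itself was tested after these values had been seen. The diapause effect at 50 days minus that at 7 days was -1.98 ± 0.51 for Gapdh2 (adjusted p = 0.0209), -1.89 ± 0.47 for Gapdh1 (0.0209) and -1.25 ± 0.37 for Tpi (0.0455). The 3 genes were among 7 that passed in this direction, 3.21% of all genes. At 150 days minus 7 days the same 3 passed, with -1.66 ± 0.47 for Gapdh1, -1.61 ± 0.51 for Gapdh2 and -1.53 ± 0.37 for Tpi (adjusted p = 0.0336, 0.0461 and 0.0172), and 3.67% of all genes passed in that direction. Pgm, Acon and CG12030 did not pass in either test. Both tests share the 7D and 7ND arrays and rest on the single 7ND array. Gapdh1 and Gapdh2 may hold the same signal here, since it is uncertain whether each probe reads 1 paralog or both, as described below. With spike-in scaling none of the 6 genes passed, although the differences were wider, at -2.22, -2.37 and -1.83 for Gapdh1, Gapdh2 and Tpi at 50 days and -2.17, -2.28 and -2.20 at 150 days, and of all 218 genes 1 and 0 passed. Without normalization none of the 6 passed either, with the median of all genes at 1.54 and 1.25 and 113 and 96 genes passing. At 50 days none passed without 50D replicate a. Leaving out any 7D or other 50D array, or 50ND replicate a or b, ended the call of Tpi at 50 days and kept both Gapdh genes. At 150 days Tpi alone passed without 7D replicate a, 150ND replicate a or 150D replicate b.

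**Figure D2:**
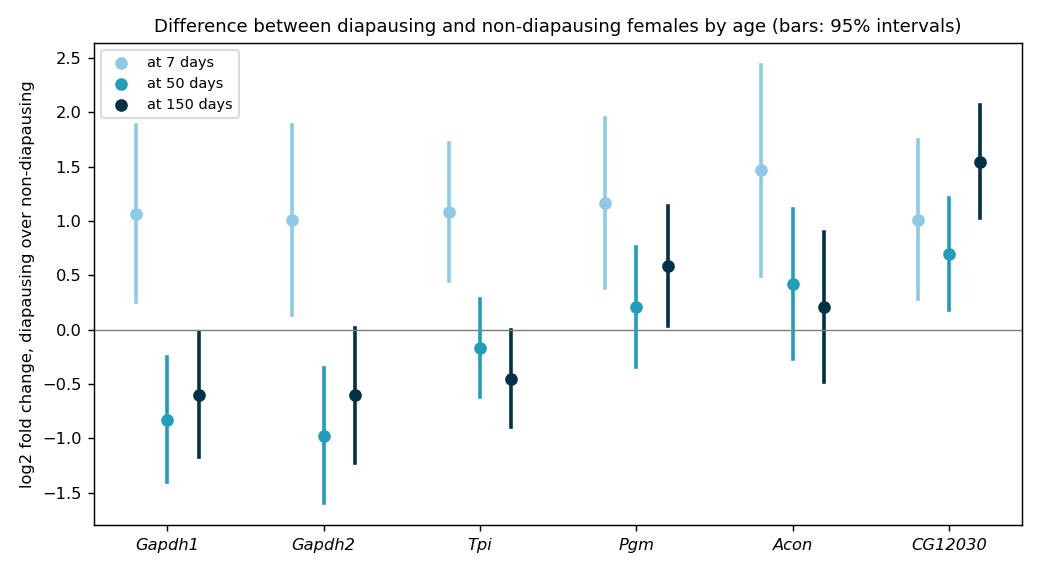
Log2 fold change of diapausing over non-diapausing females (vertical axis) for each gene (horizontal axis) at 7, 50 and 150 days, with 95% intervals from limma. Gapdh1 stands at 1.07, -0.83 and -0.60 at the 3 ages, and CG12030 at 1.01, 0.70 and 1.55, above 0 at each.

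From autumn diapause to winter, 150D against 50D, none of the 6 genes was called and 9.63% of all genes were. Tpi was lower in 150D by adjusted p alone (-0.68 ± 0.21, adjusted p = 0.0371), as were 8.26% of all genes. Gapdh1 (-0.66 ± 0.27, 0.107) and Gapdh2 (-0.64 ± 0.29, 0.138) had the same sign without passing, and all 3 lay lower on every 150D array than on any 50D array. The groups did not overlap, in one direction or the other, for 51.4% of all genes. Scaling to the 75th percentile, scaling to the spike-ins and no normalization each called these 3 genes, with differences of -1.03 to -1.84. The median of all genes was then 0.02, -0.73 and -0.29, against 0.13 after quantile normalization, and 13, 51 and 27 of the 218 genes were called lower, against 14. CG12030 differed by 0.44 (95% interval -0.07 to 0.96), Pgm by 0.12 and Acon by -0.27. The 3 other Pgm probes, described below, were called lower in 150D. The gut markers were higher in 150D, with sums of 14.02 to 15.28, against 12.50 to 12.99 in 50D. Of the 2 markers 1 was called higher, as were 3.21% of all genes, and their part was not tested.

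In winter, 150D and 150ND females of 1 age had lived under the same conditions after their first days. CG12030 was called, 2.92-fold higher in 150D (log2 1.55 ± 0.25, adjusted p = 0.00024), and 6.88% of all genes were called higher. It was higher on each slide, by 1.0, 1.55 and 2.09, and with spike-in scaling it stood at 1.13 with an adjusted p of 0.146. Gapdh1 (-0.60 ± 0.27, 0.108), Gapdh2 (-0.60 ± 0.29, 0.134) and Tpi (-0.45 ± 0.21, 0.124) did not pass. Without 150ND replicate c, the array with low ovary markers, Gapdh2 was called lower in 150D (-1.02 ± 0.25, 0.00266) and CG12030 stood at 1.60. Pgm (0.59 ± 0.26, 0.101) and Acon (0.21 ± 0.33, 0.646) did not pass. Of the 2 gut and the 2 muscle markers, 1 each was called higher in 150D and none lower. Gut sums were 14.02 to 15.28 in 150D, against 13.33 to 14.31 in 150ND. Muscle sums were 15.53 to 16.10, against 13.98 to 15.12, and the part of either tissue was not tested. The diapause effect at 150 days minus that at 50 days passed for none of the 6 genes, against 8.72% of all genes, and was 0.85 ± 0.35 for CG12030 (adjusted p = 0.161).

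The first step out of winter, 220D against 150D, called none of the 6 genes, and 9.17% of all genes. Differences ran between -0.14 for CG12030 and 0.47 for Pgm, with adjusted p of 0.202 or more, and the arrays of the groups overlapped for every member, while they did not for 42.7% of all genes. These values are those of the probes used, and the 3 other Pgm probes, described below, were called higher in 220D. Against 7D, 4 genes were called lower in the 220D females. Gapdh2 was 5.67-fold lower (log2 -2.50 ± 0.29, adjusted p = 2.99e-06), Gapdh1 4.53-fold (-2.18 ± 0.27, 5.65e-06), Acon 3.58-fold (-1.84 ± 0.33, 0.000186) and Tpi 2.82-fold lower (-1.50 ± 0.21, 2.13e-05), and 11.5% of all genes were called lower. By adjusted p alone Pgm was lower as well (-0.72 ± 0.26, 0.0304), as were 18.8% of all genes. CG12030 stood at -0.16 (95% interval -0.67 to 0.36), but was called lower with 75th-percentile scaling (-1.55, adjusted p = 0.000371), no normalization (-1.03, 0.0199) and spike-in scaling (-1.80, 0.00648). Within the 3 slides Gapdh2 differed by -3.03, -2.31 and -2.18 and Gapdh1 by -2.58, -1.93 and -2.03. Acon differed by -2.64, -1.69 and -1.18 and Tpi by -1.81, -1.32 and -1.37. The comparison of 220D with 7D shares the 7D arrays with that of 50D and 7D females.

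When the ovaries had matured, 250D against 220D, Gapdh2 was called higher in 250D, 2.17-fold (log2 1.12 ± 0.29, adjusted p = 0.00445), with 13.8% of all genes called higher. Within the slides it was higher by 1.73, 0.82 and 0.80. Gapdh1 was higher by adjusted p alone (0.88 ± 0.27, 0.0123), and CG12030 was lower in 250D by -1.0 ± 0.25 (0.00272), a value just under the fold change of 2, while 23.4% of all genes were higher and 25.7% lower by that rule. CG12030 did not pass with 75th-percentile scaling (-0.53, adjusted p = 0.149), no normalization (-0.31, 0.544) or spike-in scaling (-0.36, 0.689). Tpi stood at 0.51 ± 0.21 (0.0584), and Pgm and Acon did not pass. Without 220D replicate b no member was called, without 220D replicate c both Gapdh genes were, and without 220D replicate a or 250D replicate c Gapdh2 and CG12030 were. Against 50ND, the 250D females differed by between -0.26 and 0.37 with none of the 6 called (0.917% of all genes were). The ovary markers had passed to 16.28 to 17.44 in 250D, against 13.13 to 13.45 in 220D. Both gut markers were higher too (Jon25Bi 3.09, adjusted p = 2.87e-05, and ninaD 2.14, 0.00481), with sums of 16.46 to 16.53 in 250D, against 12.36 to 14.56 in 220D. The muscle markers were lower, with sums of 14.16 to 15.0 in 250D, against 15.78 to 16.22 in 220D. Of the 2 muscle markers 1 was called lower, as were 18.8% of all genes. The part of ovary, gut or muscle RNA in these differences was not tested.

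Among non-diapausing females, 150ND in winter was compared with 50ND in summer. Gapdh2 was called 2.02-fold lower in 150ND (log2 -1.02 ± 0.29, adjusted p = 0.0175), with 5.96% of all genes called lower, and Gapdh1 was lower by adjusted p alone (-0.89 ± 0.27, 0.0247), as were 8.26% of all genes. Tpi (-0.40 ± 0.21, adjusted p = 0.212), CG12030 (-0.41 ± 0.25, 0.268), Pgm (-0.26, 0.538) and Acon (-0.06, 0.922) did not pass on the probes used. The 3 other Pgm probes, described below, were called lower. Within the slides Gapdh2 differed by -1.88 (the slide of 150ND replicate c), -0.47 and -0.70. The differences of both Gapdh genes rest on 150ND replicate c. Without it Gapdh2 stood at -0.60 ± 0.25 (adjusted p = 0.101) and Gapdh1 at -0.53 ± 0.23 (0.139). Leaving out 50ND replicate a or b also ended the call of Gapdh2, and without 150ND replicate a both Gapdh genes were called. The gut markers were lower in 150ND as well (Jon25Bi -1.77, adjusted p = 0.00925, and ninaD -3.36, 0.000329), with sums of 13.33 to 14.31 in 150ND, against 14.87 to 16.23 in 50ND, and their part was not tested.

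**Figure D3:**
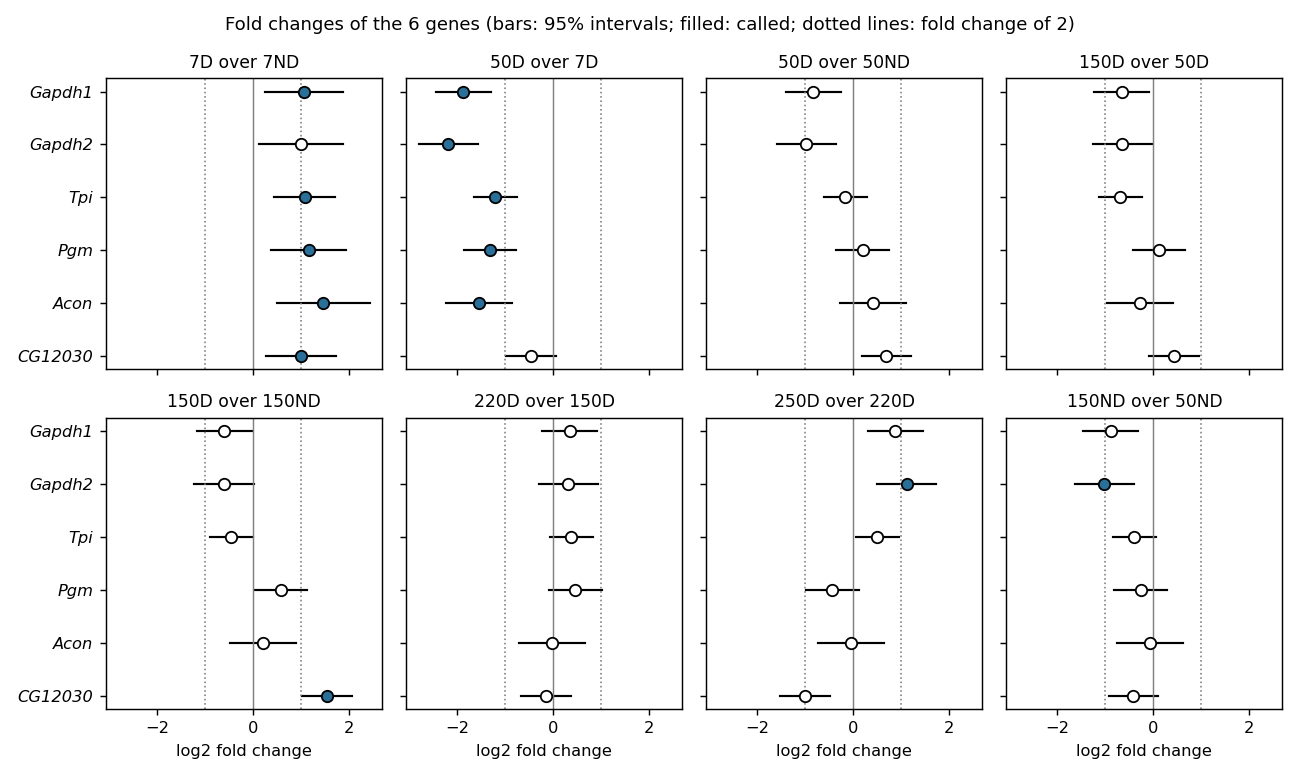
Log2 fold changes (horizontal axis) of the 6 genes (rows) in the 8 comparisons (panels), with 95% intervals from limma; filled points were called, and dotted lines mark a fold change of 2. In 50D over 7D 5 genes lie left of -1, and in 150D over 150ND CG12030, at 1.55, is the only filled point.

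The probes named Gapdh1 and Gapdh2 did not separate the paralogs cleanly. Their names carry a further number, 1 or 2, and 11 probes, the brighter of each pair, were compared. Probes of Gapdh1 numbered 1 correlated with those of Gapdh2 numbered 2 at r of 0.989 to 0.993 over 22 arrays, and Gapdh1 numbered 2 with Gapdh2 numbered 1 at 0.988 to 0.999. Within a gene, the probes numbered 1 and 2 correlated at 0.957 to 0.976 for Gapdh1 and 0.956 to 0.986 for Gapdh2. Probes of 1 gene with unlike numbers were thus less alike than probes of the 2 genes with unlike numbers, and whether each probe reads 1 paralog or both is uncertain. The probes used for both genes belong to the first of these sets (Gapdh1 numbered 1 with Gapdh2 numbered 2), so that the r of 0.996 between them is one between probes of the same set. Counts of members called may therefore hold 1 Gapdh signal under 2 names.

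The 2 sets of Gapdh probes gave different winter values. In 150D against 150ND, the 7 probes of the second set differed by -0.94 to -1.13, and 6 of them were called with p adjusted over all 1850 probes, of which 11.9% were called. The 4 probes of the first set differed by -0.58 to -0.65, and none was called. In 250D against 220D the second set stood at 1.28 to 1.56, with all 7 called, and the first at 0.88 to 1.18, with 2 of 4 called and 22.4% of all probes called. In 50D against 7D all 11 probes were called, at -1.75 to -2.21, with 22.7% of all probes. In 7D against 7ND, with 1 array of 7ND, the second set differed by 0.77 to 0.89, short of a fold change of 2. In the first set the Gapdh2 probes differed by 0.96 to 1.01 and the Gapdh1 probes by 1.07 or more.

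**Figure D4:**
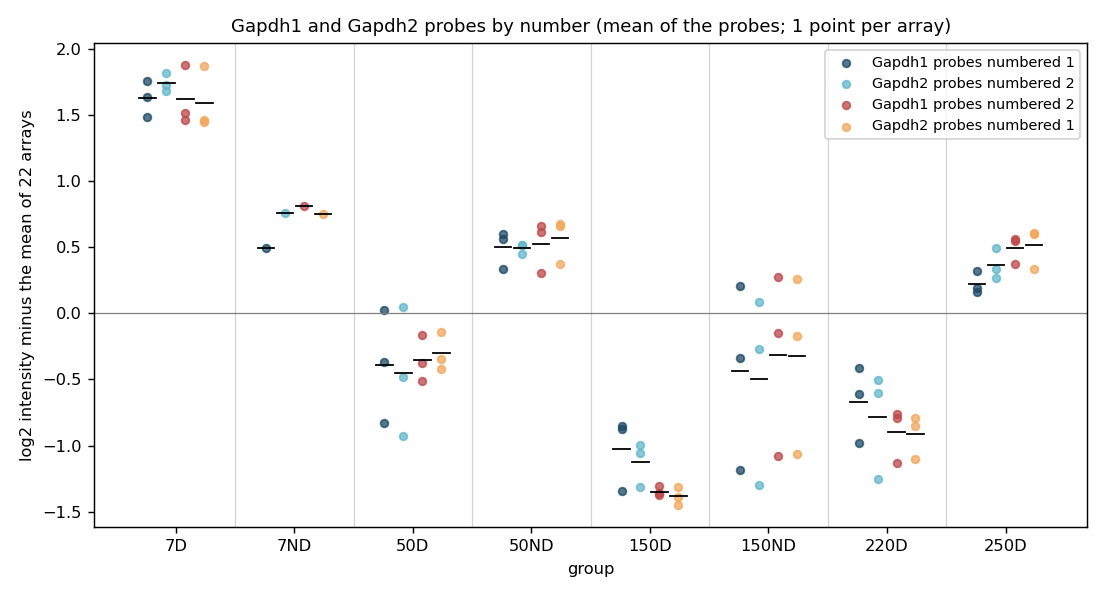
Log2 intensity of the Gapdh1 and Gapdh2 probes in the 8 groups, averaged over probes of 1 number and centred on the mean of 22 arrays (vertical axis); points are arrays and lines are group means. Gapdh1 numbered 1 and Gapdh2 numbered 2 run together, as do Gapdh1 numbered 2 and Gapdh2 numbered 1, which lie lower in 150D.

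For Acon, CG12030 and Tpi the brighter probes of the other pairs that were well above background on all 22 arrays followed the one used, with r of 0.985 to 0.999. The dimmer probes of the pairs followed it less closely, with r of 0.855 to 0.897 for Acon, 0.719 to 0.790 for CG12030 and 0.814 to 0.908 for Tpi. Pgm was the exception. Of the brighter probes of its 4 pairs, the 3 not used followed each other at r of 0.980 to 0.984 but correlated with the brightest at only 0.438 to 0.492, so these probes held 2 readings of Pgm. Both were highest in 7D, but the 3 probes then traced a much deeper seasonal course. The second probe, as an example of the 3, measured 13.74, 14.33 and 14.88 in 7D, against 12.90 in 7ND, and 11.70, 11.47 and 12.03 in 50D, against 12.99, 13.22 and 13.39 in 50ND. It measured 10.30, 10.86 and 10.77 in 150D, against 11.74, 11.21 and 10.99 in 150ND, and reached 11.49, 12.36 and 12.60 in 220D and 13.45, 12.65 and 12.75 in 250D. On this probe 150D was the lowest group and 50D lay below 50ND without overlap, as for the Gapdh genes.

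With p adjusted over 1850 probes, the 3 other Pgm probes were called in 7D against 7ND (1.21 to 1.49; 27.7% of all probes called) and in 50D against 7D (-2.30 to -2.72). They were also called in 4 of the 8 comparisons in which the brightest was not. They were lower in 50D than in 50ND by -1.27 to -1.47 (22.3% of all probes called), lower in 150D than in 50D by -1.03 to -1.14 (10.9%), and higher in 220D than in 150D by 1.1 to 1.51 (8.54%). In 150ND against 50ND they were lower by -1.76 to -1.93 (11.4%), with adjusted p of at most 0.00191. The brightest probe gave 0.21, 0.12, 0.47 and -0.26 in these 4 comparisons. The 3 probes were called as well in 220D against 7D (-2.11 to -2.64; 17.2%) and in 250D against 150ND (1.57 to 1.79; 11.9%), and 1 of the 3 was in 250D against 220D (0.80 to 1.16). In 150D against 150ND none of the 4 probes was called, with -0.48 to -0.67 on the 3 probes and 0.59 on the brightest. Which of the 2 readings follows Pgm transcripts was not tested.

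**Figure D5:**
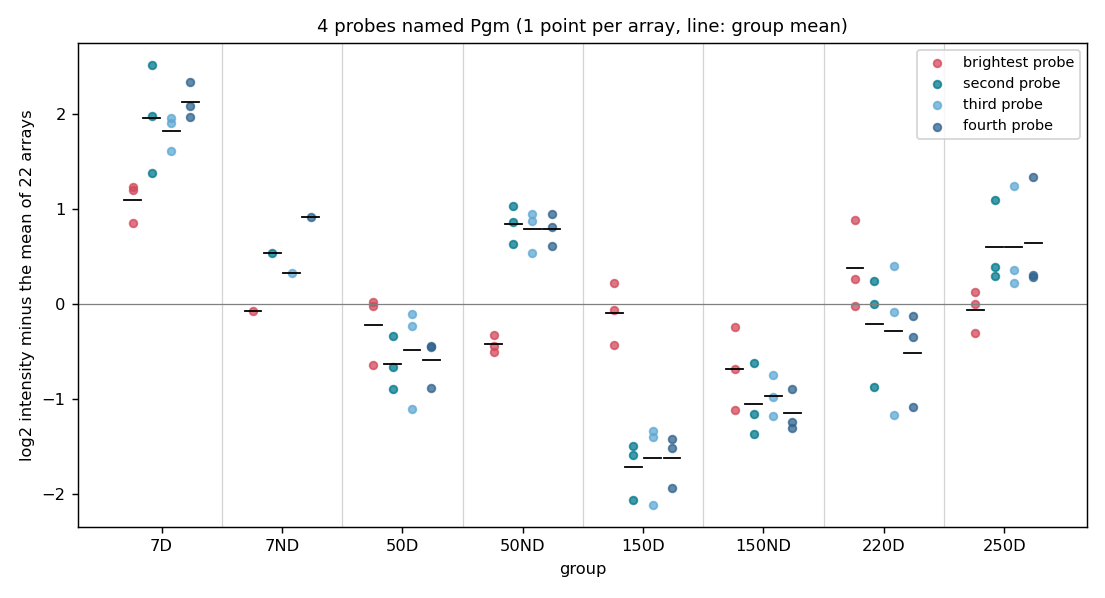
Log2 intensity of 4 probes named Pgm in the 8 groups, each centred on its mean over 22 arrays (vertical axis); points are arrays and lines are group means. The brightest probe is not low in 150D, whereas the other 3 are lowest there and higher in 220D and 250D.

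Of the other carbohydrate enzymes on the array, a list chosen with earlier results known, Adh, Treh and Sas were measured. Treh, the trehalase that splits the blood sugar, measured 9.15 to 9.74 in 50D, against 10.56 to 10.74 in 7D, and was lower by -1.21 ± 0.42 (adjusted p = 0.0226). It was also lower in 220D than in 7D (-1.88 ± 0.42, 0.00124), and in no other comparison was it called. Adh, the alcohol dehydrogenase, was lower in 50D than in 7D (-3.47 ± 0.47, 1.33e-05), in 50D than in 50ND (-2.77 ± 0.47, 0.000141) and in 150D than in 50D (-2.64 ± 0.47, 0.00117), and was higher in 220D than in 150D (3.01 ± 0.47, 0.000294). It was also lower in 150ND than in 50ND (-5.90 ± 0.47, 3.14e-08) and higher in 250D than in 220D (3.3 ± 0.47, 2.19e-05). Sas was called in none of the 8 comparisons. Of the 3, 2 were thus called lower in 50D against 7D, beside 5 of the 6 members.

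Genes of neighbouring pathways were taken from lists chosen in the same way. The insulin list held InR, ilp7, Pi3K92E, Thor and sgg. In 50D against 7D, when 5 enzyme genes were lower, 2 of these 5 were called higher, Pi3K92E, a catalytic subunit of phosphoinositide 3-kinase (1.69, adjusted p = 0.00146), and Thor, the translation repressor 4E-BP (1.18, 0.00126), and none lower, with 15.6% of all genes called higher. Thor was also called higher in 150D than in 50D (1.27, 0.00371) and lower in 220D than in 150D (-1.53, 0.000626). In these 2 comparisons no member was called on the probe used, though the 3 other Pgm probes were. InR, ilp7 and sgg were called in none of the 8 comparisons. In 7D against 7ND Pi3K92E was called lower (-1.85, 0.0126). In 150D against 150ND it was again lower (-1.34, 0.0126) and Thor was higher (log2 1.0, 0.00805). Of 4 genes of proline and stress metabolism (P5cr, slgA, Cat and Sod) and 2 of energy sensing and mitochondria (SNF4Agamma and CoI), none was called in 7D against 7ND or in 50D against 7D. Cat, the catalase that removes hydrogen peroxide, was called higher in 50D than in 50ND (1.96, 0.000234) and in 150D than in 150ND (1.56, 0.00288). In the latter comparison CG12030 was the only member called on the probe used. Cat was lower in 250D than in 220D (-1.52, 0.00163), and none of the other genes of these 2 lists was called in any of the 8 comparisons.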

How the data were processed

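RNA was amplified, labelled with Cy3 and hybridized to a custom Agilent array with 1 sample per array. The deposited scanner files hold spot intensity after background subtraction by Feature Extraction 10.7.1.1, median spot and background intensity and flags of 0 or 1 (unit: other). The authors deposited a second table of intensity per probe, quantile-normalized in R with limma (version not given in the sources used here). Here, log2 intensity of 14800 gene spots was quantile-normalized over 22 arrays, outlier-flagged spots were left out (kept in 43 cases with all 8 spots flagged), spots were averaged per probe, and the brightest of a gene's probes was used. No spot was saturated. The 8 groups entered a single linear model (limma 3.58.1 in R 4.3.3, lmFit and eBayes) without pseudocount, with p adjusted by Benjamini-Hochberg over 218 genes. Calls needed a fold change of 2 with an adjusted p below 0.05, and differences between ages the adjusted p alone. The number of arrays limits the precision. The 2-female samples were taken as separate biological replicates. Members that passed were named in each of the 8 comparisons. The 3 genes most like each member were taken by group means. From the carbohydrate, insulin, proline and energy lists, the genes called were named. Muscle, gut, photoreceptor, neuron and ovary markers were checked. On the 22 arrays all but para (9 arrays) and ninaD (19) were above background. Members and lists were chosen with earlier results of these data known. Alternatives covered scaling, background, probe choice, filters, blocks and leaving out arrays. The fit was tested on simulated data.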

Additional observations from a re-analysis of the deposited data

Results flagged for a closer look

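For 3 genes the difference between diapausing and non-diapausing females changed with age, by a test of the difference itself that was added after the values were seen. At 50 days minus 7 days it was -1.89 for Gapdh1 (7D over 7ND 1.07, 50D over 50ND -0.83), -1.98 for Gapdh2 (1.01 and -0.98) and -1.25 for Tpi (1.08 and -0.17). At 150 days minus 7 days it was -1.66 for Gapdh1, -1.61 for Gapdh2 and -1.53 for Tpi. All 3 of the 7D arrays lay above the single 7ND array for each gene, and 89% of all genes separated there in either direction. For both Gapdh genes all 3 of the 50D arrays lay below all 3 of the 50ND arrays. Those 2 groups did not overlap for 72.9% of all genes. Groups of 3 arrays were too small for a test of single arrays that stand apart.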

How the results depend on the processing

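The 8 comparisons and 3 differences between ages were recomputed under 13 other settings. Of these 143 counts of called genes, 113 stayed within 1.5 times the count given above, and that of 50D against 7D did so in all 13, with 4 to 6 genes. The exceptions are these. With the 75th percentile, no normalization or spike-in scaling alike, 150D against 50D and 250D against 220D called 3 each. No normalization and spike-in scaling each called 0 in 7D against 7ND and in both differences from 7 days, and spike-in scaling called 0 in 150D against 150ND and 5 in 150ND against 50ND. The mean of all probes called 1 in 50D against 50ND, 0 in 250D against 220D and 5 in each difference from 7 days. Adjusted p alone called 3, 1, 3 and 2 in 50D against 50ND, 150D against 50D, 250D against 220D and 150ND against 50ND. With 7ND replicate c included 7D against 7ND called 2, and with the slide as a block 3. Fitting only the groups compared called 0 in 150ND against 50ND and 0 in the difference of 150 and 7 days, for which the slide as a block called 1. The second-brightest probe, added after the data were seen, called 1 in 50D against 50ND, in 150D against 50D and in 220D against 150D. Leaving out 1 array gave 4 in 7D against 7ND, 5 in 50D against 7D, 0 to 2 in 50D against 50ND, in 150ND against 50ND and in 250D against 220D, 1 to 2 in 150D against 150ND, 0 to 3 and 1 to 3 in the differences of 50 and of 150 from 7 days, and 0 in 150D against 50D, 220D against 150D and the difference of 150 and 50 days. The 7ND array could not be left out. Signs turned for Pgm in 150D against 50D, at -0.31 (75th percentile), -0.63 (no normalization), -1.07 (spike-in), -0.83 (mean of probes), -1.09 (second probe) and -0.0894 to 0.298 on leaving out 1 array (below 0 without replicate a of 50D or 150D), where the 3 scalings put the median of all genes at 0.02, -0.29 and -0.73, against 0.13, and in 50D against 50ND, at -1.08 (mean) and -1.47 (second probe). They also turned for CG12030 in 220D against 7D, at -0.353 to 0.0657 on leaving out 1 array (above 0 without 7D replicate c or 220D replicate a), and for Acon in the difference of 50 and 7 days without normalization (0.31), where the median of all genes was 1.54, against 0.13. The median of all genes in 50D against 7D was 0.21, and 0.11, 1.08 and 0.74 with the 75th percentile, no normalization and spike-ins; the genes called higher and lower were 34 and 29, and then 30 and 31, 114 and 11, and 74 and 18. In 7D against 7ND they were 36 and 42, and then 58 and 34, 0 and 101, and 4 and 27.

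Replicate letters were shared by the groups, and nothing in the labels says that a letter pairs arrays. Arrays of 1 letter deviated together (r over 0.1) in 32 of 63 pairs, and 14 of 21 arrays lay closest to their own letter. With a replicate block 7D against 7ND called 4 genes, CG12030 (0.88) falling short of the fold change, and every other comparison kept its count. Arrays limit these values: 7ND has 1 usable array, and the others 3.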
